A study of Mus musculus with 6 samples.

Results

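The translation initiation factor transcripts described here are the 55 rows, of 24421 gene symbols measured, whose symbol is Eif followed by a digit from 1 to 6 and then only lower-case letters or digits. They cover the subunits of the factors, the kinases and inhibitors that act on them, and related proteins that carry the same name stem. RNA came from whole hearts of C57BL6/J mice aged 4 weeks and was sequenced in 6 libraries. Cnot3 belongs to CCR4-NOT, a protein complex that removes poly(A) tails from mRNAs. In RNA immunoprecipitation (RIP) an antibody captures a protein from a lysate, and the RNA held with it is sequenced. The groups were Cnot3 RIP, made with an antibody against Cnot3, control IgG RIP (IgG RIP from here on), made with a control antibody, and Input, the heart RNA before capture, with 2 libraries each. The labels give no allele, transgene or drug for any group, and the same strain, age and tissue for all 3. Between the RIP groups they name no difference other than the antibody. The labels do not tell whether the 2 libraries of a group are separate animals, and p-values therefore measure only the spread between libraries, which may be technical.

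Initiation brings a ribosome to the start codon of an mRNA. The eIF4 proteins bind the cap and unwind the leader, the large eIF3 complex holds the small ribosomal subunit, eIF1 and eIF1A keep it scanning, and eIF2 delivers the initiator tRNA and is recharged by eIF2B. Stress kinases phosphorylate eIF2 and so lower initiation in general, while 4E-binding proteins block the cap-binding factor eIF4E. Through the poly(A)-binding protein, which contacts eIF4G, the tail that CCR4-NOT shortens is also linked to the cap. These are facts about the proteins. The values below are amounts of the mRNAs that encode them.

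Library totals ran from 15713318 to 33479580 reads, and Rn45s, the ribosomal RNA precursor, took 51.1% to 79.2% of them. The Rn45s share differed by group, at 78.3% and 79.2% in Input, 60.2% and 59.4% in IgG RIP and 53.1% and 51.1% in Cnot3 RIP. Without Rn45s 3407528 to 12500739 reads were left per library, of which 15713 to 46360 belonged to the Eif transcripts. Levels are given as scaled CPM, reads scaled to the library total and then by TMM, a factor per library that sets most genes level between libraries. A single fit over 13010 genes (limma on log2 of scaled CPM plus 0.25) gave the fold changes, and calls were made at an adjusted p (Benjamini-Hochberg over all these genes) under 0.05. The libraries did not separate cleanly by group: replicate 2 of IgG RIP and replicate 1 of Cnot3 RIP correlated at r = 0.975 over log2 values, while the 2 IgG RIP libraries correlated at 0.971 and the 2 Cnot3 RIP libraries at 0.965. The summed level of 6 heart muscle markers was 18190 to 33760 scaled CPM in IgG RIP, 22880 to 24380 in Cnot3 RIP and 16990 to 20180 in Input, and IgG RIP overlapped both other groups. Myh6 carries most of that sum, averaging 15510 scaled CPM in Cnot3 RIP libraries and 9306 in Input, while 4 of the 6 markers had a log2 fold change below 0 in Cnot3 RIP against Input (median -0.39; limma and edgeR called none, and DESeq2 called Tnni3 lower); their part in the results was not tested. The summed levels of 6 endothelial, 6 fibroblast and 6 leukocyte markers overlapped between the 3 groups. Single markers could differ: limma, edgeR and DESeq2 called the leukocyte marker Lyz2 lower in Cnot3 RIP than in Input. No other leukocyte marker was called there, and 2 of the 4 tested had a log2 fold change above 0 (median -0.13). DESeq2 called the fibroblast marker Tcf21 higher in Cnot3 RIP than in IgG RIP (2.25 in limma, which did not call it). In that comparison 4 of the 6 fibroblast markers were below 0. Against Input, DESeq2 called Tcf21 and Dcn, 1 higher and 1 lower. The haemoglobin genes Hba-a1, Hba-a2, Hbb-bs and Hbb-bt were listed at 0 in every library. The treatment of multi-mapping reads is not given, so these values of 0 do not tell how much haemoglobin RNA was present. Alas2, the other of 5 erythroid markers, was detected and carries their sum. That sum was 11.9 to 13.6 scaled CPM in IgG RIP, 6.09 to 13.7 in Cnot3 RIP and 6.23 to 12.8 in Input, with all groups overlapping. In bulk RNA, fewer cells of a type and less RNA per cell cannot be told apart.

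Among the 52 Eif transcripts abundant enough to be tested, Eif2ak3 was called in Cnot3 RIP against IgG RIP. Eif2ak3 encodes PERK, the eIF2 kinase of the endoplasmic reticulum that responds to unfolded proteins. Its level was 16.7 and 39.8 scaled CPM in Cnot3 RIP, 6.06 and 6.48 in IgG RIP, and 5.36 and 5.07 in Input. Both Cnot3 RIP libraries stood above the other 4, and they differed from each other more than those 4 did. The values rest on 469 and 1329 reads in Cnot3 RIP, 105 and 143 in IgG RIP and 58 and 105 in Input. The group means were 28.3 ± 16.4 scaled CPM in Cnot3 RIP (SD, n = 2), 6.27 ± 0.299 in IgG RIP and 5.21 ± 0.203 in Input. Against IgG RIP the log2 fold change was 2.00 (SE 0.36, limma adjusted p = 0.0350), or 4.00-fold. Against Input it was 2.26 (SE 0.36, limma adjusted p = 0.0128), while IgG RIP and Input differed by 0.25 (limma adjusted p = 0.702). The size of the difference depended on the Cnot3 RIP libraries: without replicate 1 the log2 fold change over IgG RIP was 2.63 (limma adjusted p = 6.34e-04), and without replicate 2 it was 1.39 (limma adjusted p = 0.0953). The call was also lost without IgG RIP replicate 1, at 1.92, and without replicate 2, at 2.05. Against Input the call was lost without Input replicate 1, at 2.25, and without Input replicate 2, at 2.18. Each fit named here that lost the call left a lone library in a group. Fewer genes passed in all in each of them, so the loss is not particular to Eif2ak3.

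Eif2ak3 (ENSMUSG00000031668.14) lies on the plus strand at chr6:70844515-70905245 in GRCm38, the mm10 build. The gene model Gm43292 overlaps 8.05% of its exon bases, and since the strand setting of the counting is not given, reads of the 2 models in that stretch cannot be told apart. CCR4-NOT is known to be brought to mRNAs by proteins that bind the 3' untranslated region (3' UTR), among them Pumilio proteins and proteins of AU-rich elements, so both kinds of motif were looked for. The letters searched, on the transcript strand only, were TATTTAT for the AU-rich heptamer and TGTANATA for the Pumilio element. The 957-base Eif2ak3 3' UTR of the GENCODE M21 annotation held 1 match to each, at positions 831 and 812 from its first base, and the motifs themselves do not overlap. They are shown because Eif2ak3 is the Eif transcript called over both other groups. Capitals mark the motif, and the sites are at chr6:70905109-70905135 and chr6:70905090-70905117, plus strand.
Eif2ak3 AU-rich heptamer: gtttatttttTATTTATaaaaattctg
Eif2ak3 Pumilio element: tcatttttccTGTAAATAcgtttatttt
Neither match is rare. Of 2648 genes with a 3' UTR of similar length, 24.4% held at least 1 AU-rich heptamer and 19.4% at least 1 Pumilio element. Over the family, 16 of 55 Eif 3' UTRs held the AU-rich heptamer (29.1%), against 26.1% of 19511 genes, and 14 held the Pumilio element (25.5%), against 22.3%. The median 3' UTR was 636 bases for the Eif transcripts and 831 bases for all genes.

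None of the other 3 eIF2 kinases passed the limma test in any comparison. Eif2ak1, the haem-regulated kinase, was at 8.94 and 7.57 scaled CPM in IgG RIP, 8.16 and 8.30 in Cnot3 RIP, with Input at 10.4 and 11.4. Its RIP groups overlapped, with a log2 fold change of 0.00 (SE 0.22) between them. Eif2ak2, the kinase that double-stranded RNA activates, was at 6.63 and 9.65 in IgG RIP, 7.87 and 4.65 in Cnot3 RIP, with Input at 8.40 and 6.28, and its 3 groups overlapped. Eif2ak4, the kinase that senses uncharged tRNA, was at 11.3 and 9.56 in IgG RIP, 7.98 and 10.5 in Cnot3 RIP, with Input at 5.36 and 4.88. All 4 RIP libraries lay above both Input libraries for Eif2ak4, and the RIP groups overlapped each other. Its log2 fold change over Input was 0.99 in IgG RIP (limma adjusted p = 0.0560) and 0.81 in Cnot3 RIP (limma adjusted p = 0.0699), neither of which passed. DESeq2 on the recovered reads, and limma on genes with a mean of at least 5 CPM, called Eif2ak4 higher in IgG RIP than in Input.

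**Figure D1:**
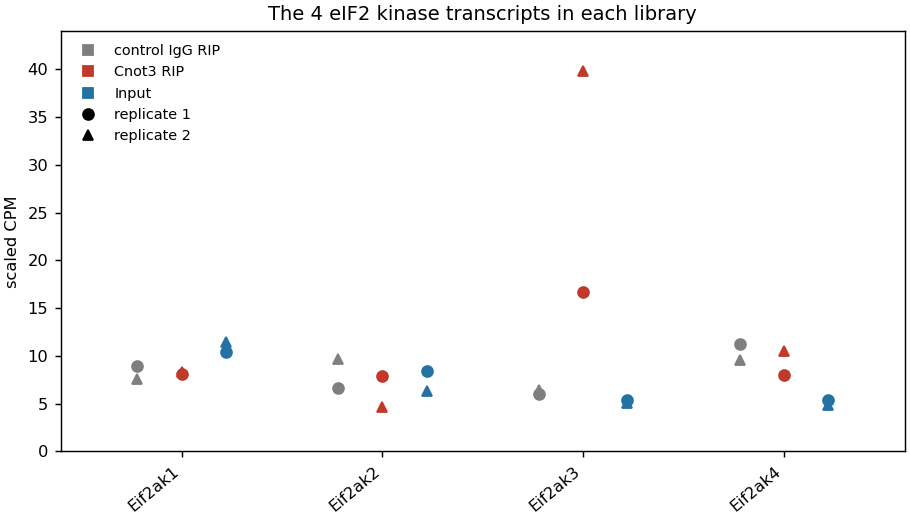
Scaled CPM (y axis) of the transcripts of the 4 eIF2 kinases (x axis) in each of the 6 libraries, with colour for the group and marker shape for the replicate. Eif2ak3 stood at 16.7 and 39.8 in Cnot3 RIP and between 5.07 and 6.48 in the other 4 libraries, while the other 3 kinases had no such gap between Cnot3 RIP and IgG RIP.

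In Cnot3 RIP against IgG RIP, 1 of 52 tested Eif transcripts was called higher (1.92%), where 1.54% of all genes tested were. None was called lower by limma, where 0.277% of all genes were; 2 had an unadjusted p under 0.05 in that direction, and edgeR's quasi-likelihood test and DESeq2 on the recovered reads also called none lower. The share called was thus near that of all genes. The median log2 fold change of the Eif transcripts was -0.01, that of all genes -0.00, and 26 of 52 were above 0. The 2 Cnot3 RIP values lay above both IgG RIP values for 9 Eif transcripts (17.3%, against 24% of all genes) and below both for 11 (21.2%, against 21.8%).

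By number, the 5 tested Eif1 transcripts had a median of 0.28 and all 5 lay above the median of all genes. The 15 Eif2 transcripts had a median of -0.21 and 11 of them lay below it. Eif3 (12 transcripts, median -0.01), Eif4 (15, median 0.12) and Eif5 (4, median -0.02) lay closer to it, and Eif6 was at -0.32. Counted against the all-gene median, the numbers for Eif1, Eif2, Eif3 and Eif4 were the same with library-size scaling and with DESeq2 size factors. Library-size scaling moved the all-gene median to 0.30, so that 10 of 15 Eif2 transcripts were then above 0. No transcript of Eif1, Eif3, Eif4, Eif5 or Eif6 passed the test here with limma, edgeR or DESeq2, and 0, 1, 1, 1 and 0 of them had an unadjusted limma p under 0.05 (Eif3f, Eif4b and Eif5a2).

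**Figure D2:**
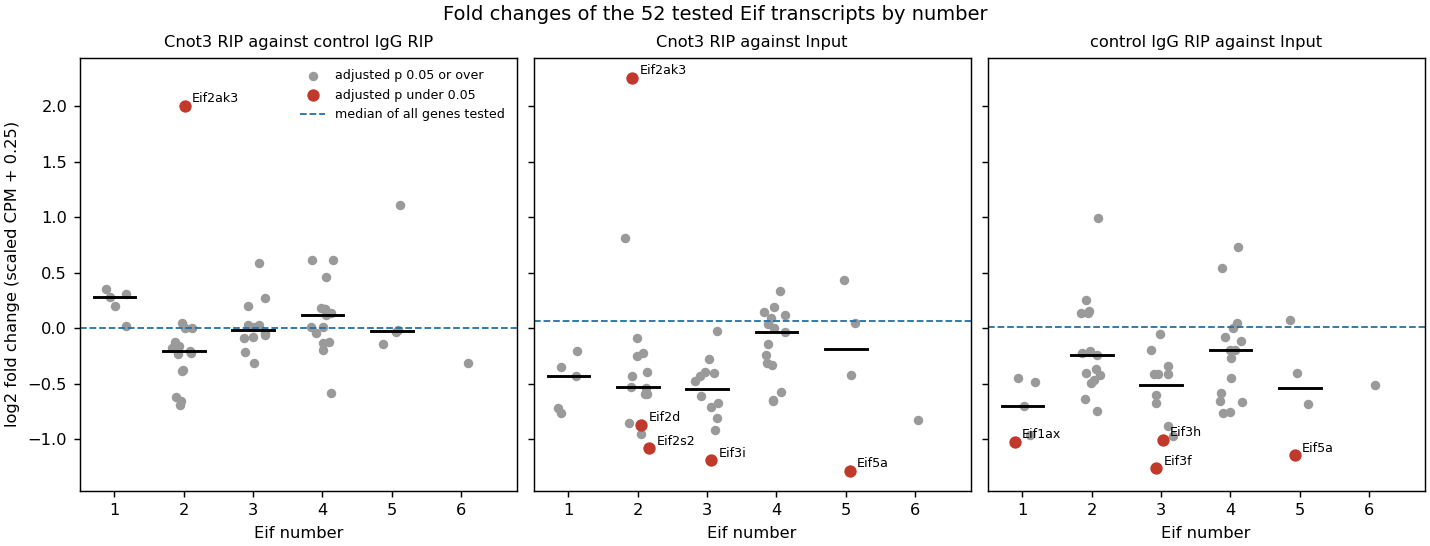
Log2 fold change (y axis, scaled CPM plus 0.25) of the 52 tested Eif transcripts by the digit of their name (x axis) in the 3 comparisons, with black bars for the median of each digit, red points for an adjusted p under 0.05 and a dashed line for the median of all genes tested. Eif2ak3 stood at 2.00 over IgG RIP and 2.26 over Input, and 44 and 43 of 52 transcripts lay below the dashed line in the comparisons of Cnot3 RIP and IgG RIP with Input; with library-size scaling the dashed lines moved to 1.02 and 0.70, and 40 and 41 lay below them.

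Of the subunits of eIF2 itself, all 4 had a log2 fold change below 0 in Cnot3 RIP against IgG RIP, from -0.13 for Eif2s1 to -0.66 for Eif2s2, and all 4 lay below the median of all genes under the 3 scalings. None passed the test. Eif2s2, the beta subunit, was at 6.40 and 5.44 scaled CPM in IgG RIP, 3.70 and 3.60 in Cnot3 RIP, with Input at 7.94 and 8.06. The 3 groups did not overlap: Cnot3 RIP was lowest, IgG RIP next and Input highest. Cnot3 RIP was called lower than Input, by -1.08 on the log2 scale (SE 0.23, limma adjusted p = 0.0275), and the difference from IgG RIP was -0.66 (SE 0.23, limma adjusted p = 0.186). Of its 50-base stretches, 10.3% occur in other models, mostly the processed pseudogene Gm9892. The gamma subunit has an X-linked and a Y-linked copy. Eif2s3y was at 22.3 and 14.7 scaled CPM in IgG RIP, 14.1 and 16.8 in Cnot3 RIP, with Input at 19.4 and 13.9, with all 3 groups overlapping. Eif2s3x was at 0.634 and 0.725 in IgG RIP, 0.499 and 0.240 in Cnot3 RIP, with Input at 0.739 and 0.966. These Eif2s3x values are low, resting on 8 to 20 reads a library. In the annotation 34.6% of the 50-base stretches of Eif2s3x also occur in Gm2223, and how reads that map to several genes were treated is not given in the sources used here, so its level is uncertain. The stretches of Eif2s3y are all its own.

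The eIF2B subunits, which recharge eIF2 with GTP, had log2 fold changes between -0.70 for Eif2b3 and 0.00 for Eif2b2 in Cnot3 RIP against IgG RIP, and none passed the test. In Cnot3 RIP against Input all 5 were below 0, from -0.95 for Eif2b1 (limma adjusted p = 0.0519) to -0.23. None passed in the main limma fit, while DESeq2 called Eif2b1 lower. Limma also called Eif2b1 lower with DESeq2 size factors and on genes with a mean of at least 5 CPM. With library-size scaling all 5 were above 0 and below the all-gene median, and Eif2b2 was called higher. Eif2d, which can place initiator tRNA without GTP, was at 6.98 and 6.52 scaled CPM in IgG RIP, 4.70 and 5.61 in Cnot3 RIP, with Input at 9.61 and 9.56. Its groups did not overlap, and Cnot3 RIP was called lower than Input at -0.87 (SE 0.23, limma adjusted p = 0.0489), close to the threshold; with library-size scaling the value was 0.17.

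Several Eif transcripts outside the Eif2 series had Cnot3 RIP values above IgG RIP that did not pass the test. Eif5a2, a paralogue of the elongation and initiation factor eIF5A, was at 2.07 and 2.55 scaled CPM in the Cnot3 RIP libraries, 0.692 and 1.22 in IgG RIP and 1.02 and 2.56 in Input. The RIP groups did not overlap each other, and Input overlapped both. At 12 and 27 reads in IgG RIP and 58 and 85 in Cnot3 RIP, the log2 fold change was 1.11 (SE 0.42, limma adjusted p = 0.215). Eif5a2 had the most Pumilio elements of any Eif 3' UTR, 4 in 4391 bases, and 3.92% of 1147 genes with a 3' UTR of similar length had as many. These sites are shown because no other Eif 3' UTR held more than 2. They lie on the plus strand at chr3:28795446-28795473, chr3:28796393-28796420, chr3:28797039-28797066 and chr3:28798081-28798108 (GRCm38), in this order, with the element in capitals.
Eif5a2 Pumilio element at position 1001: attttaagtgTGTATATActtttattgt
Eif5a2 Pumilio element at position 1948: aatatataagTGTACATActccaacatg
Eif5a2 Pumilio element at position 2594: acagtgtgagTGTATATAcaaatacaca
Eif5a2 Pumilio element at position 3636: tgaaaagagcTGTAAATAtttaataaat
Eif4enif1, the transporter of eIF4E that also partners with mRNA decay factors, held 2 such elements in 496 bases. Of 2134 genes with a 3' UTR of similar length to that of Eif4enif1, 1.78% had as many. Its values overlapped between the RIP groups at a log2 fold change of 0.17.

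Of the cap-complex transcripts, Eif4b, which stimulates the eIF4A helicase, was at 45.0 and 71.9 scaled CPM in the Cnot3 RIP libraries, 40.4 and 34.1 in IgG RIP and 56.4 and 69.9 in Input. Cnot3 RIP lay above IgG RIP without overlap and overlapped Input, and the log2 fold change of 0.61 did not pass (SE 0.27, limma adjusted p = 0.288). Eif4ebp1, an inhibitor of eIF4E, was at 7.23 and 15.4 in Cnot3 RIP, 6.69 and 6.93 in IgG RIP and 8.13 and 13.0 in Input. Cnot3 RIP replicate 2 was high and replicate 1 close to IgG RIP, and the log2 fold change of 0.62 carried an SE of 0.36 (limma adjusted p = 0.452). Of the other 4E-binding proteins, Eif4ebp2 had 0.46 (limma adjusted p = 0.366) and Eif4ebp3 -0.58 (limma adjusted p = 0.411). For Eif4ebp3, 67.3% of the exon bases overlap the model AC115631.1, so its reads cannot be assigned with certainty. The scaffolds Eif4g1, Eif4g2 and Eif4g3 had log2 fold changes of -0.04, 0.13 and -0.20, and the helicases Eif4a1, Eif4a2 and Eif4a3 had 0.12, -0.12 and 0.17. Eif4e, which binds the cap, was at 10.8 and 9.56 in IgG RIP and 9.08 and 11.5 in Cnot3 RIP, with a log2 fold change of 0.01.

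Against Input the Eif transcripts lay mostly on the lower side in both kinds of immunoprecipitate after TMM scaling. The 2 Cnot3 RIP values were below both Input values for 34 of 52 Eif transcripts (65.4%, against 26.9% of all genes) and above both for 6 (11.5%, against 30.6%). The 2 IgG RIP values were below both Input values also for 34 (65.4%, against 29.3%) and above both for 4 (7.69%, against 29.7%). These comparisons share the Input libraries, so their counts are not separate evidence. The median log2 fold change of the Eif transcripts was -0.41 in Cnot3 RIP against Input, with all genes at 0.06, and -0.42 in IgG RIP against Input, with all genes at 0.01. Eif transcripts made up 0.461% and 0.463% of the reads outside Rn45s in Input, 0.358% and 0.371% in Cnot3 RIP and 0.323% and 0.342% in IgG RIP. With library-size scaling the medians changed sign, to 0.65 and 0.33, while those of all genes moved to 1.02 and 0.70, so the Eif transcripts remained below the other genes.

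Few of these differences were large enough to be called. In Cnot3 RIP against Input 4 Eif transcripts were called lower (7.69%, against 2.47% of all genes) and 1, Eif2ak3, higher (1.92%, against 5.86%). In IgG RIP against Input 4 were called lower (7.69%, against 1.49% of all genes). None was called higher by limma (2.58% of all genes); 3 had an unadjusted p under 0.05, edgeR called none and DESeq2 called 1, Eif2ak4. With library-size scaling 23 and 8 Eif transcripts were called higher than Input in Cnot3 RIP and IgG RIP and 0 lower, beside 7752 and 4383 genes higher and 7 and 10 lower in all. Leaving out a library cut the calls of lower genes against Input in most fits. They rose in both comparisons without Cnot3 RIP replicate 1, and in IgG RIP without Cnot3 RIP replicate 2. In Cnot3 RIP 0 Eif transcripts were left without Cnot3 RIP replicate 2, Input replicate 1 or Input replicate 2, where the 321 lower genes in all fell to 21, 10 and 2. In IgG RIP 0 were left without either IgG RIP library or either Input library, where the 194 lower genes in all fell to between 3 and 5.

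Eif5a was called lower than Input in both immunoprecipitates. Its protein, known for its hypusine modification, helps ribosomes through difficult stretches of sequence. The level was 30.2 and 28.6 scaled CPM in Input, 13.2 and 10.7 in Cnot3 RIP and 13.9 and 12.4 in IgG RIP. All 4 RIP libraries lay far below both Input libraries and overlapped each other. The log2 fold change was -1.29 in Cnot3 RIP (SE 0.22, limma adjusted p = 0.0151) and -1.15 in IgG RIP (SE 0.22, limma adjusted p = 0.0294), and between the RIP groups it was -0.14. Eif5a (ENSMUSG00000078812.10) lies on the minus strand at chr11:69916714-69921958, and 3.77% of its 50-base stretches occur in other models, mostly processed pseudogenes.

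All 12 tested eIF3 subunits had a log2 fold change below 0 against Input in Cnot3 RIP (median -0.55) and in IgG RIP (median -0.51); with library-size scaling 11 and 8 of them were above 0, and in each comparison 11 of 12 were below the all-gene median. Of these, limma called 1 lower in Cnot3 RIP, where 2.47% of all genes were called lower, and 2 in IgG RIP, where 1.49% were. In Cnot3 RIP edgeR and DESeq2 each called 2, Eif3h and Eif3i. Eif3i, a small subunit built of WD repeats, was at 14.4 and 18.9 scaled CPM in Input, 7.30 and 6.90 in Cnot3 RIP and 7.90 and 8.70 in IgG RIP. Input stood above all RIP libraries, with Cnot3 RIP called lower at -1.19 (SE 0.23, limma adjusted p = 0.0222) and IgG RIP at -0.97 without passing (SE 0.23, limma adjusted p = 0.0537). Eif3h was at 18.9 and 20.7 in Input, 9.11 and 10.4 in IgG RIP and 10.8 and 11.7 in Cnot3 RIP. Control IgG RIP was called lower than Input at -1.01 (SE 0.22, limma adjusted p = 0.0408) and Cnot3 RIP had -0.81 (limma adjusted p = 0.0521). Of its 50-base stretches, 20.3% are shared with processed pseudogenes. At the other end Eif3a, the largest subunit of the complex, was at 79.1 and 75.3 in Input, 81.6 and 70.0 in Cnot3 RIP and 88.4 and 62.4 in IgG RIP. Its 3 groups overlapped, with log2 fold changes of -0.03 and -0.05 against Input.

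Eif3f, a subunit with an MPN domain, was called lower than Input in IgG RIP and not in Cnot3 RIP in the main limma fit. Limma on genes with a mean of at least 5 CPM called it lower than Input in both. It was at 29.6 and 27.8 scaled CPM in Input, 12.2 and 11.5 in IgG RIP and 14.5 and 22.1 in Cnot3 RIP. The 3 groups did not overlap, with Cnot3 RIP between the other 2 and its 2 libraries far apart. The log2 fold change against Input was -1.26 in IgG RIP (SE 0.25, limma adjusted p = 0.0318) and -0.67 in Cnot3 RIP (limma adjusted p = 0.125). The difference between the RIP groups, 0.59, did not pass (SE 0.25, limma adjusted p = 0.266), and without Cnot3 RIP replicate 1 it was 0.90 and passed (limma adjusted p = 0.0467). Many mRNAs of the translation machinery begin with a terminal oligopyrimidine tract, a C followed by a run of pyrimidines at the first transcribed base. With a run of at least 5 pyrimidines counted from a C at the RefSeq start, 2 of 43 Eif transcripts with a RefSeq promoter entry had such a start, against 2.81% of 17224 genes. Each is shown from 10 bases before to 19 bases after its start base, with the pyrimidine run of 11 in capitals; Eif3f is at chr7:108934405-108934434, plus strand, and Eif2s3x at chrX:94212632-94212661, minus strand (RefSeq, GRCm38.p6).
Eif3f start: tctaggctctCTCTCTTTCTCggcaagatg
Eif2s3x start: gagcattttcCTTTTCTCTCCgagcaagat
An annotated start can differ from the one used in the heart, so a run that is missing here says only that these letters are not at the RefSeq start.

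After TMM scaling, transcripts of the scanning factors were also below Input. Eif1ax, the X-linked eIF1A gene, was at 12.1 and 10.7 scaled CPM in Input, 5.08 and 5.89 in IgG RIP and 7.48 and 6.21 in Cnot3 RIP. The 3 groups did not overlap, IgG RIP was called lower at -1.03 (SE 0.24, limma adjusted p = 0.0472) and Cnot3 RIP had -0.72 (limma adjusted p = 0.0882). Eif1, which guards start codon choice, was at 16.1 and 23.1 in Input, 9.92 and 9.65 in IgG RIP and 9.62 and 13.2 in Cnot3 RIP. Both RIP groups lay below Input, by -0.96 and -0.76 on the log2 scale, and neither passed with limma. DESeq2 called Eif1 lower in IgG RIP, and limma on genes with a mean of at least 5 CPM called it lower in Cnot3 RIP. Eif1ad, an eIF1A-like protein, was at 8.87 and 8.93 in Input, 4.15 and 6.93 in IgG RIP and 6.84 and 7.05 in Cnot3 RIP, and did not pass in any comparison.

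**Figure D3:**
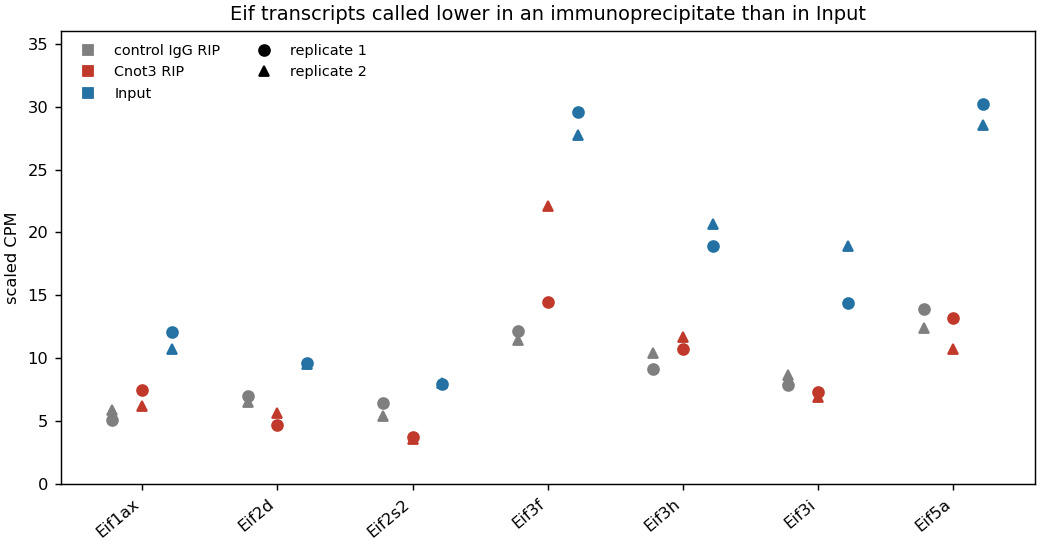
Scaled CPM (y axis) in each library for the 7 Eif transcripts called lower than Input in at least 1 immunoprecipitate (x axis), with colour for the group and marker shape for the replicate. Both Input libraries stood above all 4 RIP libraries for each of the 7, as for Eif5a at 30.2 and 28.6 against 10.7 to 13.9; these values are after TMM scaling, and with library-size scaling none of the 7 was called lower.

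After TMM scaling, the Eif4 transcripts had a median log2 fold change against Input of -0.03 in Cnot3 RIP and -0.20 in IgG RIP; with library-size scaling the medians were 1.01 and 0.53, beside 1.02 and 0.70 for all genes. None of the 15 passed in the main limma fit in either comparison, where 3 and 6 had an unadjusted p under 0.05. The count tests edgeR and DESeq2 called none. Limma on genes with a mean of at least 5 CPM called Eif4e and Eif4h lower in Cnot3 RIP. With library-size scaling, Eif4 transcripts were called higher in both comparisons, among them Eif4a2 and Eif4g1, beside 7752 and 4383 genes in all. The 3 cap-binding proteins Eif4e, Eif4e2 and Eif4e3 were below the all-gene median in both. Of Eif4ebp1, Eif4ebp2, Eif4ebp3 and Eif4enif1, the inhibitors and the transporter, 1 was below it in Cnot3 RIP (group median 0.12) and 3 in IgG RIP (group median -0.18). Eif4g3 was at 35.8 in both Input libraries, 57.0 and 47.6 in IgG RIP and 44.6 and 46.0 in Cnot3 RIP, above Input without overlap at 0.54 and 0.34, neither of which passed. Eif4g2, which encodes an eIF4G-like protein that lacks the eIF4E-binding part, was at 428 and 430 in Input, 328 and 303 in IgG RIP and 302 and 395 in Cnot3 RIP. All 4 RIP libraries lay below Input, by -0.45 and -0.31, and did not pass. Eif5b, the GTPase that joins the ribosomal subunits, had overlapping values in the RIP groups, at 49.7 and 29.1 in IgG RIP and 37.1 and 37.2 in Cnot3 RIP, with 36.7 and 35.4 in Input. Eif6, which keeps the large subunit from joining early, was at 4.80 and 5.84 in Input, 4.10 and 3.22 in IgG RIP and 2.92 and 2.82 in Cnot3 RIP. Its groups did not overlap, and none of its differences passed (log2 fold change against Input -0.83 in Cnot3 RIP, limma adjusted p = 0.0768).

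Transcript length moved with the difference from Input, for Eif transcripts and for genes in general. Over the 52 Eif transcripts, Spearman's rho between the length of the main transcript and the log2 fold change against Input was 0.42 in Cnot3 RIP and 0.29 in IgG RIP, and over 12008 genes it was 0.50 and 0.46. These are correlations across genes of the same libraries, which are not independent replicates. In Cnot3 RIP the 20 Eif transcripts under 2 kb had a median of -0.46, where all genes of that length had -0.41. The 18 of 2 to 4 kb had -0.56, where all genes had 0.00, and the 14 over 4 kb had -0.01, where all genes had 0.36. In IgG RIP the medians were -0.45, -0.46 and -0.16, where all genes had -0.40, -0.05 and 0.25. The Eif transcripts under 2 kb were thus close to other genes of their length, and the longer ones lay lower. Of the 7 transcripts called lower than Input, Eif1ax is the longest at 5172 bases and Eif3i the shortest at 1123. Eif2ak3 is 4513 bases long, and its 2.26 over Input compares with the class median of 0.36. The part of transcript length in these differences was not tested. Between the RIP groups rho was 0.19 over the Eif transcripts and 0.11 over all genes.

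**Figure D4:**
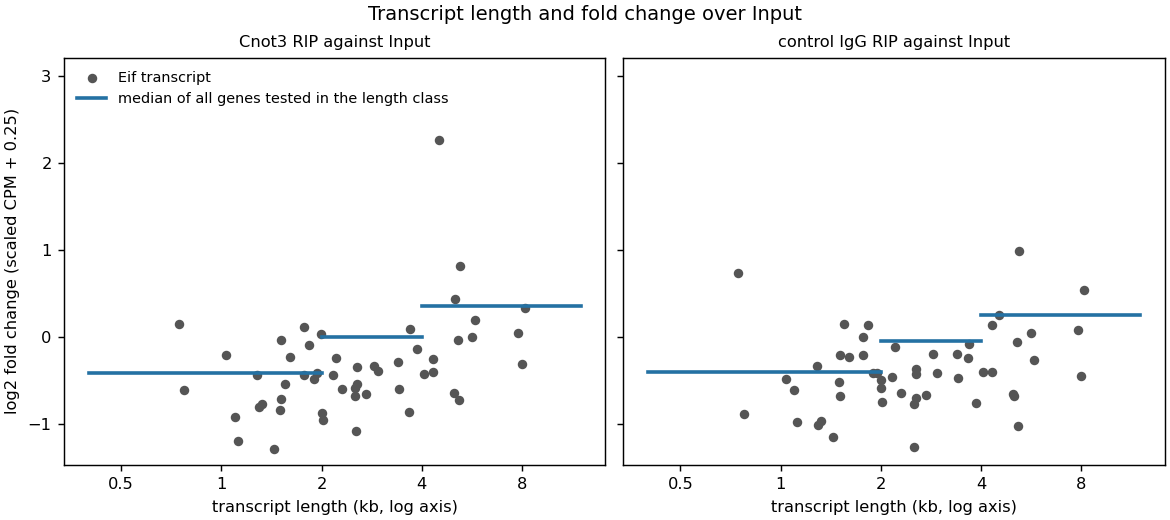
Log2 fold change against Input (y axis, scaled CPM plus 0.25) of each tested Eif transcript by the length of its main transcript (x axis, kb, log axis), for Cnot3 RIP and IgG RIP, with blue lines for the median of all genes tested under 2 kb, from 2 to 4 kb and over 4 kb. Eif transcripts of 2 to 4 kb had medians of -0.56 and -0.46, below the lines at 0.00 and -0.05.

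To compare Eif transcripts with each other, levels in Input were divided by the length of the main transcript. Eif4g2 was highest at 53.7 ± 0.195 scaled CPM per kb (SD, n = 2), followed by Eif4g1 at 33.3 ± 5.39, Eif4a2 at 21.6 ± 0.801 and Eif5a at 20.5 ± 0.795. Eif4a2 and Eif5a did not differ beyond their spread, nor did Eif5a differ from Eif4h at 18.8 ± 2.25. Eif3k was at 17.2 ± 2.27, and both its Input values lay below those of Eif5a. The lowest tested were Eif2s3x at 0.234, Eif5a2 at 0.356, Eif2ak4 at 0.982 and Eif2ak3 at 1.16 scaled CPM per kb. In Cnot3 RIP, Eif2ak3 stood at 6.27 scaled CPM per kb. The helicase pair was uneven: Eif4a2 was at 21.6 and Eif4a1 at 2.13 scaled CPM per kb, and 28.4% of the 50-base stretches of Eif4a1 occur in other models, so the level of Eif4a1 is uncertain. Eif3d is uncertain too, since Gm17638 overlaps 43.3% of its exon bases. The 3 transcripts that were not tested, Eif4e1b, Eif3j1 and Eif3j2, were listed at 0 in all 6 libraries. Of the 50-base stretches of Eif3j1 and Eif3j2, 50.9% and 91.8% are shared with other models, mostly with each other, so a 0 there does not tell how much of either transcript was present. A 0 in this table allows up to 3 reads, or 0.0899 to 0.277 scaled CPM depending on the library, for counting error only.

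**Figure D5:**
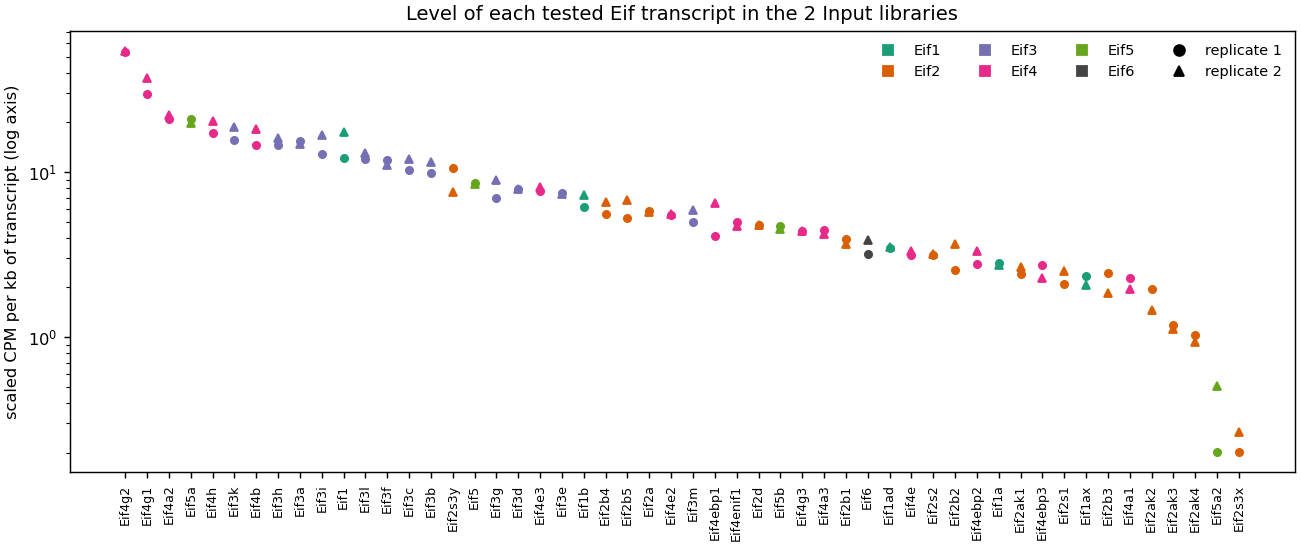
Level in the 2 Input libraries (y axis, scaled CPM per kb of transcript, log axis) of the 52 tested Eif transcripts, ordered from highest to lowest mean (x axis), with colour for the digit of the name and marker shape for the replicate. Levels ran from 53.7 for Eif4g2 to 0.234 for Eif2s3x, with most eIF3 subunits in the upper part and the eIF2 kinases in the lower.

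Genes that act with these factors but have other names were read from 3 lists. Of 33 initiation regulators and partners tested, 13 integrated stress response genes and 13 elongation and termination factors, none was called in Cnot3 RIP against IgG RIP by limma or by edgeR, while DESeq2 called 4 regulators (Pabpc1, Larp4, Paip2 and Ddx3x) and 2 stress response genes (Ppp1r15b and Chac1) higher. At an unadjusted limma p under 0.05 there were 7 (21.2%), 6 (46.2%) and 1 (7.69%), where 17.3% of all genes had such a p. The medians of the lists were 0.08, 0.46 and 0.09, beside -0.00 for all genes. The smallest p-values among the regulators were those of Pabpc1, the main poly(A)-binding protein, at 1.03 (SE 0.24, limma adjusted p = 0.0720), Larp4, which binds poly(A), at 1.01 (limma adjusted p = 0.0902), and Paip2, which keeps the poly(A)-binding protein from its partners, at 1.09 (limma adjusted p = 0.115). Pabpc1 averaged 34.2 ± 8.55 scaled CPM over the Cnot3 RIP libraries and 16.4 ± 1.34 over those of IgG RIP (SD, n = 2). The stress response list holds outputs of that response and genes of the eIF2 phosphatases. Its smallest p-values were those of Ppp1r15b at 1.30 (SE 0.30, limma adjusted p = 0.0672), Sesn2 at 1.28 (limma adjusted p = 0.0959) and Nck1 at 0.91 (limma adjusted p = 0.145). Ppp1r15b brings a phosphatase to eIF2 and so opposes PERK. Ppp1r15b was at 51.9 ± 23.2 in Cnot3 RIP, 19.9 ± 1.39 in IgG RIP and 20.4 ± 0.811 in Input. Among elongation and termination factors the smallest p-values were those of Pelo at -0.81, Eef1g at 0.40 and Eef2 at 0.48, with limma adjusted p of 0.168, 0.504 and 0.506.

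Against Input more of them passed. More of all genes passed too: 5.86% were called higher and 2.47% lower in Cnot3 RIP against Input, beside 1.54% and 0.277% against IgG RIP. In IgG RIP against Input the shares were 2.58% and 1.49%. Limma called 3 of 33 regulators higher and 1 lower in Cnot3 RIP, and 1 and 2 of 13 stress response genes. Of 13 elongation and termination factors it called 0 higher and 2 lower. The genes named next were chosen because they passed. In Cnot3 RIP the regulators Gigyf1 (1.33), which works with the cap-binding protein Eif4e2, Larp4 (1.04) and Impact (1.30), an inhibitor of Eif2ak4 activation, were called higher and Denr, a partner in recycling ribosomes, lower (-0.93). Of the stress response genes Ppp1r15b (1.26) was called higher, and Ppp1ca (-1.19), a catalytic subunit of the phosphatase, and Atf5 (-1.25), a transcription factor, lower. Of the elongation factors Eef1a1 (-1.22) and Eef1b2 (-1.15) were called lower. In IgG RIP, Denr (-1.15), Ppp1ca (-0.96), Atf5 (-1.38), Eef1a1 (-1.39) and Eef1b2 (-1.24) were called lower than Input. The elongation and termination list had medians of -0.56 and -0.74 against Input, on the same side as the Eif transcripts at -0.41 and -0.42; with library-size scaling the list had medians of 0.50 and 0.02, below all genes at 1.02 and 0.70.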

How the data were processed

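The authors deposited 1 table of CPM values per gene symbol and library, which sum to the same total in each library when Rn45s is counted. The submitters' processing notes name mm10, TopHat2 2.1.0, Bowtie2 2.2.5, CASAVA 1.8, FastQC and edgeR. Not given in the sources used here are the read counter, annotation, library kit, strand setting and treatment of multi-mapping reads. Groups came from the sample labels.

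Reads were recovered from the smallest step of each column. With it 100% of values were whole within 0.01 read. The deposited CPM were scaled with TMM factors from these reads (edgeR 4.0.16). The model (limma 3.58.1, R 4.3.3, trended empirical Bayes) took log2 of scaled CPM with 0.25 added, over all 6 libraries in 3 groups and no block (3 residual and 6.24 prior degrees of freedom). Genes passed filterByExpr at a minimum count of 10, which kept 13010 of 24421 and 52 of 55 Eif rows. P-values were adjusted over all 13010. Fold changes on this scale understate those of low genes. With 2 libraries against 2, an exact permutation test cannot give a p under 0.333. The count tests on recovered reads, edgeR's quasi-likelihood test and DESeq2 1.42.0, called 242 and 573 genes higher, and 54 and 162 lower, when Cnot3 RIP was set against control IgG RIP. The scripts were tested on simulated data.

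Gene models, transcript lengths, shared 50-base stretches and 3' UTRs came from GENCODE M21 (GRCm38); the 55 symbols all matched. The main transcript is the protein-coding one with the longest coding sequence. Start sites came from RefSeq (GRCm38.p6), which held 43 of the 55. A 3' UTR was of similar length at 0.8 to 1.25 times the length compared.

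The Eif rows, the other gene lists and the tests were chosen with earlier results of these data known. Values in every library were given for each Eif transcript called in any comparison, for the most abundant and the most changed of each digit, and for Eif2s3x and Eif2s3y. Others were named to describe their role group. Listed genes outside the symbol rule were named where called in Cnot3 RIP against control IgG RIP or among the 3 of smallest p there; those named against Input or by DESeq2 were chosen after their values were seen. Alternatives were library-size scaling, DESeq2 size factors, pseudocounts of 1 and 0.05, no filter, a mean of at least 5 CPM, a replicate block, both count tests and leaving out each library. The result of 1 listed gene is not reported here.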

Additional observations from a re-analysis of the deposited data

How the results depend on the processing

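With 2 libraries a group, leaving out a library leaves a lone sample that is assumed to vary like the other groups. Over those 6 fits, Eif transcripts called higher in Cnot3 RIP against control IgG RIP numbered 0 to 2. In Cnot3 RIP against Input 0 to 2 were called higher and 0 to 4 lower, and in control IgG RIP against Input 0 to 1 higher and 0 to 6 lower. Library-size scaling, which leaves the differing Rn45s share in the values, moved the median of the Eif transcripts to 0.30 in Cnot3 RIP against control IgG RIP, 0.65 in Cnot3 RIP against Input and 0.33 in control IgG RIP against Input, with 23 called higher and 0 lower in the second and 8 higher and 0 lower in the third. With no filter on low values 0 Eif transcripts were called higher in Cnot3 RIP against control IgG RIP, with Eif2ak3 at 2.04 (limma adjusted p = 0.0689), and 2 lower in Cnot3 RIP against Input; more genes enter the adjustment there. With a mean of at least 5 CPM, 44 Eif transcripts were tested; 11 were called lower in Cnot3 RIP against Input, beside 570 of 7312 genes, and 1 higher in control IgG RIP against Input, beside 132. DESeq2 on the recovered reads called 1 higher in control IgG RIP against Input; the cause was not tested.

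Of the values of named Eif transcripts under all alternatives, 678 kept their direction and side of the threshold, 18 passed it newly, 53 no longer passed it and 52 changed sign. A value that changed sign is counted only there, even where it also passed the threshold newly or no longer passed it. Library-size scaling, which moves all genes alike, gave 22 of the sign changes, and 20 of these stayed on the same side of the all-gene median. In Cnot3 RIP against control IgG RIP they were Eif2s3y (0.083), Eif3i (0.091), Eif5a (0.17) and Eif5b (0.28). In Cnot3 RIP against Input they were Eif1 (0.30), Eif1ad (0.70), Eif1ax (0.33), Eif2d (0.17), Eif2s3y (0.97), Eif3a (1.05), Eif3f (0.40), Eif3h (0.26), Eif4g2 (0.77) and Eif6 (0.18). In control IgG RIP against Input they were Eif1ad (0.036), Eif2d (0.25), Eif2s2 (0.31), Eif2s3x (0.33), Eif3a (0.71), Eif4ebp1 (0.16), Eif4g2 (0.32) and Eif6 (0.20). Other settings that kept all 6 libraries changed the sign of values near 0. Between the RIP groups Eif3a went to -0.0059 with DESeq2 size factors, -0.023 with DESeq2 and -0.077 with a mean of at least 5 CPM, and Eif5b to 0.0082 with no filter. Against Input, in Cnot3 RIP, Eif3a went to 0.017 with no filter, and Eif4ebp1 to -0.050 and Eif5b to -0.044 with a mean of at least 5 CPM. Leaving out a library changed the sign of some values that had not passed the test. Between the RIP groups the ranges were -0.017 to 0.43 for Eif1, -0.028 to 0.71 for Eif1ad, -0.53 to 0.034 for Eif2s3y, -0.22 to 0.24 for Eif3a, -0.054 to 0.34 for Eif4g2, -0.28 to 0.016 for Eif5a and -0.41 to 0.32 for Eif5b. For Cnot3 RIP against Input they were -0.37 to 0.097 for Eif2s3y, -0.13 to 0.083 for Eif3a, -0.49 to 0.57 for Eif4ebp1, -0.19 to 0.98 for Eif5a2 and -0.028 to 0.051 for Eif5b. In control IgG RIP against Input they were -0.17 to 0.43 for Eif2s3y, -0.32 to 0.19 for Eif3a and -0.32 to 0.46 for Eif5b.

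The labels do not say that the replicate numbers pair the libraries. Same-numbered libraries deviated together at r = -0.32 (control IgG RIP and Cnot3 RIP), -0.33 (control IgG RIP and Input) and 0.34 (Cnot3 RIP and Input), so the numbers were not taken to pair them, and whether they do is not known. With a replicate block Eif2ak3 was at 2.00 in Cnot3 RIP against control IgG RIP (limma adjusted p = 0.0161), and 2 Eif transcripts were called lower in control IgG RIP against Input and 3 in Cnot3 RIP against Input. Transcripts with few reads, such as Eif2s3x and Eif5a2, are limited by depth.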
